A study of Homo sapiens with 27 samples.

Results

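The data were 4 bulk cDNA libraries, of 27 samples in the series, that carried a common molecular identifier (CMI) and were amplified for 15, 20, 25 or 30 cycles of PCR. They were taken by the deposited count table that their labels name, and all 45278 features of that table were used. Its value columns are called Sample1, Sample2, Sample3 and Sample4. The sources used here do not say which column holds which number of cycles, so the columns are given by these names and no value is assigned to a number of cycles. The order of the names, and of the totals, is not evidence of the order of the cycles. The labels place JJN3 cells, a human plasma cell line, and 5TGM1 cells, a mouse myeloma line, in all 4 libraries, with no treatment. Each number of cycles had 1 library, from a CMI-tagged cDNA library amplified to different extents per the study, so there is no replicate and no test of cycle number. The study describes sequencing of this experiment on an ONT Minion, whereas the labels' extraction protocol names a kit for Illumina libraries. A feature is an Ensembl transcript, human (ENST) or mouse (ENSMUST).

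A unique molecular identifier (UMI) is a random sequence joined to each cDNA molecule before amplification, so that PCR copies of the same molecule can be collapsed into a single count. An error made by the polymerase or the sequencer turns a copy into an apparent new molecule. A CMI replaces the random sequence by the same sequence on every molecule. After collapsing, a transcript should then have a count of 1 whatever its abundance, and a count above 1 is the measure of overcounting. The labels do not say whether the deposited counts were made before or after homotrimer correction, in which each base is written 3 times and read by majority, and the values are therefore given as deposited.

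The primers with trimer barcodes are shown because such a barcode, added during PCR, is what assigns a read to its library. The study's supplement lists 4 of them, each with a barcode of 12 bases at the 5′ end (capitals) and the rest of the primer in lower case, 35 bases in all.
Barcode 1: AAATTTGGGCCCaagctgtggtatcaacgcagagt
Barcode 2: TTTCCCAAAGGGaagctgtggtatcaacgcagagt
Barcode 3: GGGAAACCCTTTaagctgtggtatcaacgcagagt
Barcode 4: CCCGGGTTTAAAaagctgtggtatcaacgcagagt
Each barcode holds 4 blocks, and in each block 1 base is repeated 3 times. Every pair of barcodes differs at 12 of 12 bases and in 4 of 4 blocks. Which barcode belongs to which column is not stated in the sources used here.

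Of the 45278 features, 27654 were human and 17624 were mouse, and each was counted in at least 1 column. Among the human features, 25443 (92.0%) could be found by identifier, ignoring its version, in GENCODE 44 on GRCh38, and they belonged to 8388 genes. Mouse features are given by identifier, because no mouse annotation was used here.

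The summed count was 12157 in Sample1, 17811 in Sample2, 18515 in Sample3 and 87818 in Sample4. Sample4 thus stood apart from the other columns, which lay within 1.52-fold of each other. The number of reads behind these sums is unknown, since the table holds counts after collapsing. The number of features counted was 9430 in Sample1, 12881 in Sample2, 12929 in Sample3 and 38342 in Sample4, so that Sample4 held 84.7% of all features listed.

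Most features had the count of 1 that a CMI should give, and the share above 1 differed between the columns. It was 17.5% in Sample1 (1650 of 9430 features; 95% Wilson interval 16.7 to 18.3%). In Sample2 it was 21.3% (20.6 to 22.0%) and in Sample3 24.1% (23.4 to 24.9%). In Sample4 it was 45.6% (45.1 to 46.1%), or 17480 of 38342 features. These shares are also the background for every group of genes described here. The intervals of the 4 columns did not overlap. Sample3 exceeded Sample2 by 2.79 percentage points (95% Newcombe interval 1.77 to 3.81), and Sample4 exceeded Sample3 by 21.5 points (20.6 to 22.3). The intervals cover counting error only and treat features as independent, which transcripts of the same gene may not be, so they may be too narrow. They do not cover the spread between libraries, which 1 library per number of cycles does not give.

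The counts above 1 were mostly low. A count of 2 was held by 12.1% of counted features in Sample1, 13.9% in Sample2, 15.6% in Sample3 and 21.4% in Sample4. Counts of 10 or more were found for 16, 31, 31 and 893 features, respectively. The highest count of any feature was 26 in Sample1, 42 in Sample2, 33 in Sample3 and 116 in Sample4. If each counted feature stood for a single CMI, the counts beyond the first would make up 22.4% of the total in Sample1, 27.7% in Sample2, 30.2% in Sample3 and 56.3% in Sample4. Sample4 was again highest, and Sample1 lowest.

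**Figure D1:**
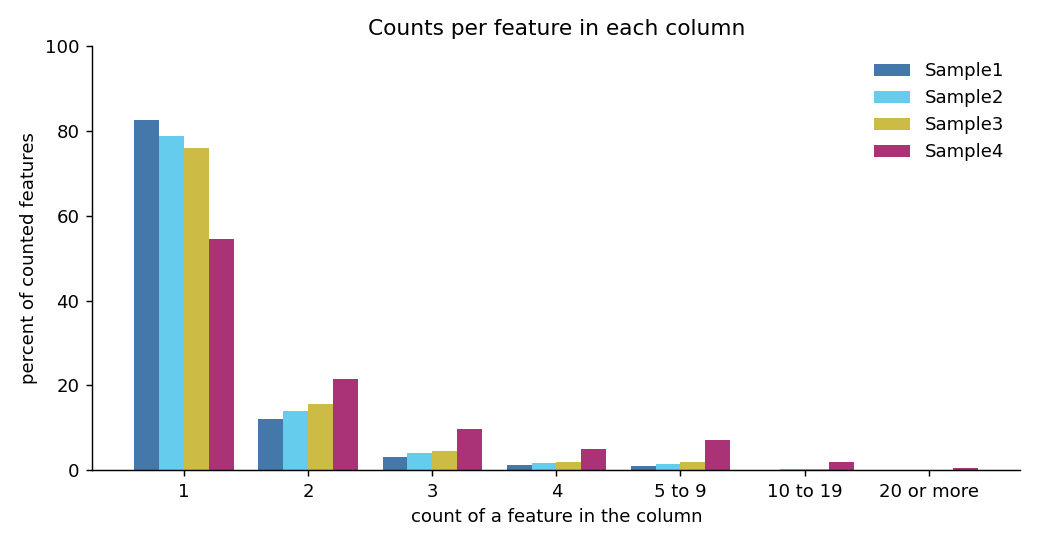
Percent of counted features (y axis) by their count in the column (x axis) for the 4 columns, shown as bars. A count of 1 was held by 82.5% of features in Sample1, 78.7% in Sample2, 75.9% in Sample3 and 54.4% in Sample4, and Sample4 has the tallest bar in every class above 1.

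The share above 1 moved with the total of the column. The number of features expected in a draw of 12157 counts, the total of Sample1, was therefore computed for each column by the exact hypergeometric formula. It was 9465 in Sample2, 9294 in Sample3 and 9621 in Sample4, beside the 9430 counted in Sample1. The expected share above 1 at that total was 17.4% in Sample2, 19.1% in Sample3 and 17.2% in Sample4, beside 17.5% in Sample1. The range over the columns was 1.93 percentage points at the common total and 28.1 points as deposited. At the common total Sample4 had the lowest share instead of the highest, and Sample3 the highest. Such a draw removes collapsed counts and not reads, so it does not stand for shallower sequencing of the same library. The total and the number of cycles each have 1 value per library and cannot be told apart.

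**Figure D2:**
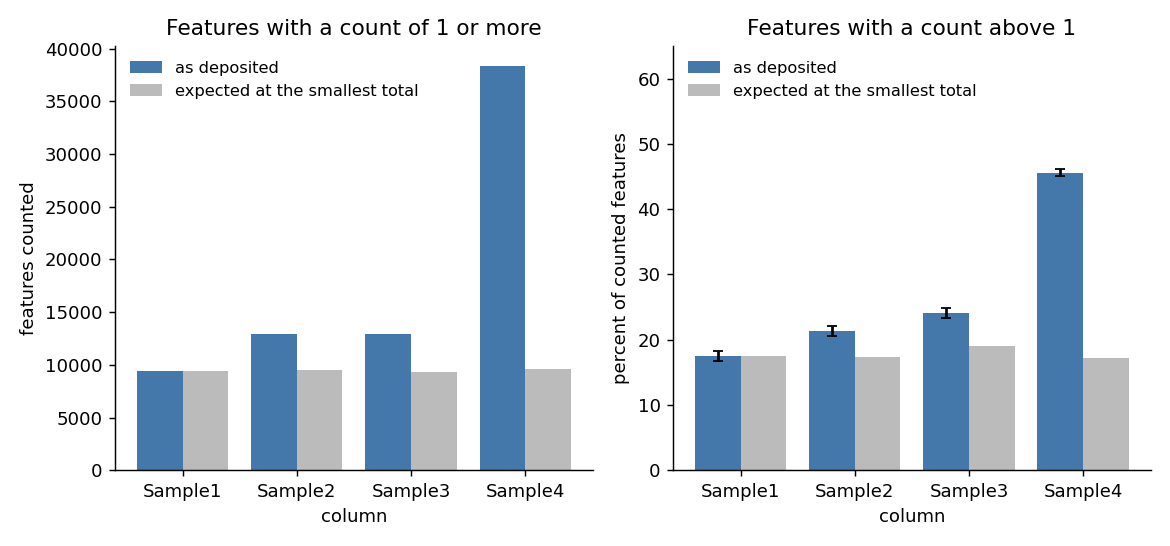
Features counted (left) and percent of counted features above 1 (right) in each column, as deposited (blue; error bars are 95% Wilson intervals) and the expectation for a draw of 12157 counts (grey). The blue bars range from 17.5% to 45.6% above 1 and the grey bars from 17.2% to 19.1%.

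The labelled cell types were checked against their markers, using the human features. Plasma cells are antibody-secreting B lineage cells, and JJN3 is a line of this kind. Of 15 plasma cell markers, 5 were counted. MZB1, an endoplasmic reticulum protein of B lineage cells, was counted 4, 3, 7 and 16 times in Sample1 to Sample4, summed over its transcripts. XBP1, a transcription factor of the unfolded protein response, was counted 0, 0, 6 and 7 times. CD38, FKBP11 and CD79A had at most 4 counts in any column. The defining markers SDC1 (the surface protein CD138), TNFRSF17 (BCMA), PRDM1, IRF4 and JCHAIN were at 0 in all columns. Of 212 immunoglobulin genes, 3 were counted, with 1 count each in all columns together.

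T cell markers were counted instead. All 15 genes of that list had at least 1 count, all 15 of them in Sample4. CD3D, a chain of the T cell receptor complex, was counted 4, 3, 10 and 19 times in Sample1 to Sample4. TRBC1, a constant segment of the receptor's beta chain, was counted 4, 3, 4 and 21 times. CD7 was counted 3, 6, 3 and 14 times, and CD3E 4, 5, 3 and 13 times. These 4 genes were present in every column, whereas LCK, the kinase that starts signalling from the receptor, was at 0 in Sample1 and had 6, 3 and 15 counts in the others. Summed over the list, T cell markers held 36.1, 28.4, 32.8 and 28.4 counts per 10000 human counts in Sample1 to Sample4, and plasma cell markers 5.55, 3.78, 12.7 and 5.87. The T cell list was thus above the plasma cell list in all 4 columns. It also had more features counted, 16 against 4 in Sample1 and 42 against 14 in Sample4. CMI counts should not rise with abundance, so these sums are not expression levels. Of the T cell features counted, 6 of 16 were above 1 in Sample1, 12 of 16 in Sample2, 5 of 25 in Sample3 and 33 of 42 in Sample4. The series also holds 6 libraries of RM82, an Ewing sarcoma line, 3 from cells given the SGC-CLK1 inhibitor and 3 from cells given DMSO, which served here as a reference for marker genes. Their counts are of random UMIs and rise with abundance, which CMI counts should not, so the scaled values of RM82 and of the columns are unlike quantities and their sizes are not compared. In the RM82 libraries, the T cell list held 0.220 to 0.592 counts per 10000 and CD3D, CD3E and TRBC1 were at 0. The plasma cell list held 1.58 to 2.21 per 10000 there, with CD38 at 22 to 46 counts, FKBP11 at 19 to 46 and TNFRSF13B at 7 to 21, and MZB1 was at 0 in all 6. Ewing sarcoma markers were led in the RM82 libraries by CAV1, with 1096 to 2064 counts, and held 32.2 to 45.9 per 10000, or 4.93 to 7.88 without CAV1. In Sample1 to Sample4 they held 0, 5.67, 0.911 and 2.08 per 10000, from JAK1 and IGF2BP1, with CAV1 at 0. The T cell markers counted went against the JJN3 label, whereas MZB1 was counted in every column. The mouse cells in these libraries are a myeloma line, and assignment of mouse reads to human transcripts was not tested. The defining plasma cell markers were not counted, but depth in reads is unknown and no limit was set for features at 0. The study's account of cell culture names Jurkat, a human T cell line, beside 5TGM1 and RM82. The identity of the human cells was not tested further, and they are called human cells here.

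**Figure D3:**
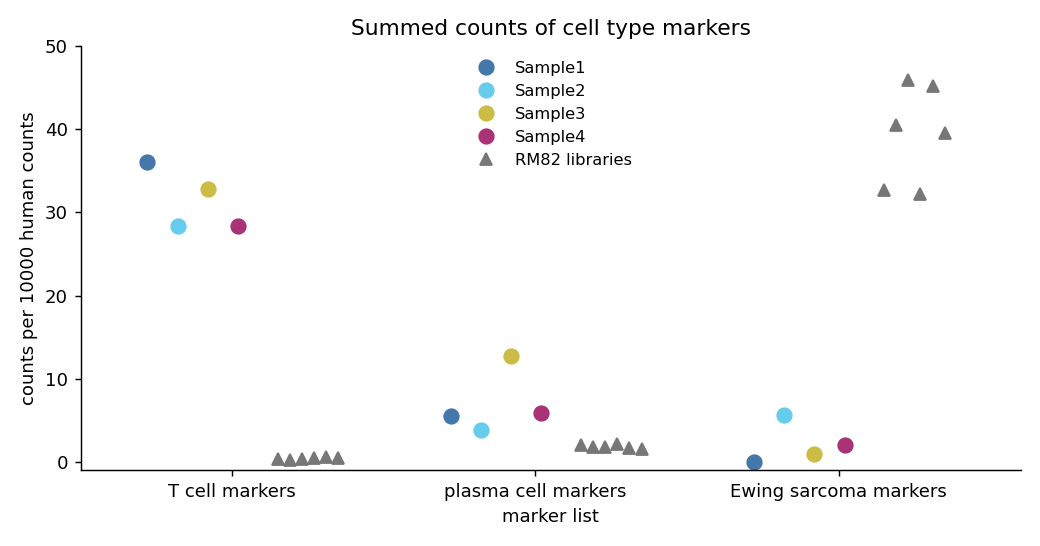
Summed counts of 3 marker lists per 10000 human counts (y axis) in the 4 columns (circles) and in 6 RM82 libraries (triangles), which carry random UMIs. In the columns, T cell markers lie between 28.4 and 36.1 and Ewing sarcoma markers at or below 5.67. In RM82, T cell markers lie below 0.6 and Ewing sarcoma markers above 32, mostly from CAV1. CMI and UMI counts are unlike quantities, so heights are to be compared within circles or within triangles.

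Human and mouse features shared each library, and their makeup was close to constant. Human features made up 60.0%, 60.2%, 60.2% and 60.7% of the features counted in Sample1 to Sample4, and 59.3%, 59.4%, 59.3% and 60.2% of the counts. The share above 1 was 17.4% for human and 17.6% for mouse features in Sample1, and 45.3% and 46.0% in Sample4. In Sample2 the shares were 21.0% and 21.9%, and in Sample3 23.6% and 24.8%. The mouse share was the higher in each column, and the interval of the difference included 0 in each. It was widest in Sample1, from -1.30 to 1.83 percentage points, and in Sample4 it ran from -0.292 to 1.75.

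At a count of at least 1, Sample1, Sample2 and Sample3 shared a minority of their features with each other and most of them with Sample4. Sample2 and Sample3, of nearly equal totals, shared 5717 features, which were 44.4% of Sample2 and 44.2% of Sample3. Among these, 54.3% had equal counts. Sample1 shared 46.6% of its features with Sample2 and 46.2% with Sample3. With a count of at least 2 in both columns, these shares of Sample1 were 51.5% and 52.1%, no longer a minority. Of the features of Sample1, 77.1% were also counted in Sample4, but they made up 19.0% of the features of Sample4. Features found in a single column numbered 1798 in Sample1, 2327 in Sample2, 2197 in Sample3 and 21363 in Sample4, the last being 55.7% of the features of Sample4.

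A feature counted in more columns was more often above 1. All 4 columns counted 3090 features, 3 columns 4531, 2 columns 9972 and a single column 27685. Without Sample1, the smallest column, 5418 features were in all of the remaining columns. For features found in 1 column, 3.06% were above 1 in Sample1 and 28.9% in Sample4. For features found in all 4 columns, the share above 1 was 37.7% in Sample1, 51.3% in Sample2, 53.6% in Sample3 and 93.7% in Sample4. Their median count was 1, 2, 2 and 6. Of the 3090 features, 660 were above 1 in every column, 114 (3.69%) had the count of 1 in every column, and 2659 (86.1%) had their highest count in Sample4 alone.

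Features high in Sample1, Sample2 or Sample3 were mostly counted in the other columns too. The 104 features with 5 or more counts in Sample1 had a median count of 5 in Sample2 (quartiles 3 and 9), 6 in Sample3 (4 and 9) and 22 in Sample4 (16 and 35), and all of them were counted in the other columns. The 7780 features with a count of 1 in Sample1 had a median of 0 in Sample2 and in Sample3 and of 2 in Sample4. In the reverse direction, the 222 features with 5 or more counts in Sample2 and the 280 in Sample3 had a median of 3 in Sample1. Over the features that a pair of columns shared, Spearman's rho was between 0.39 and 0.46 and Pearson's r of log2 counts between 0.51 and 0.55. These are across 4353 to 10290 features, which are not independent replicates. The columns come from the same cDNA per the study, so this repeat is not independent.

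**Figure D4:**
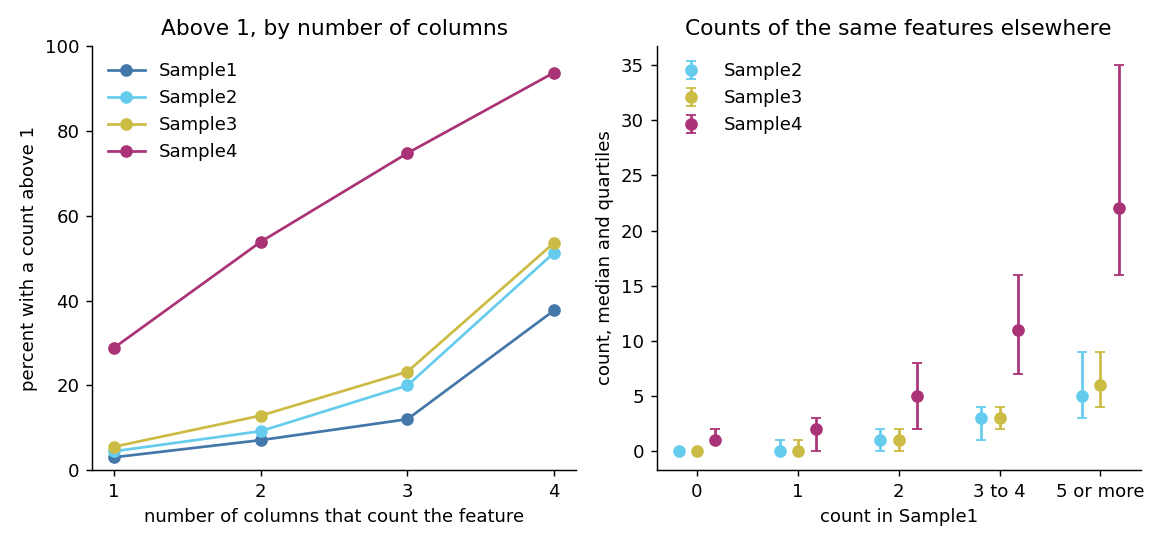
Left, percent of counted features above 1 (y axis) by the number of columns that count the feature (x axis), with 1 line per column. Right, counts in Sample2 to Sample4 (points are medians, bars the quartiles) by the count of the same features in Sample1. Both rise to the right, to 93.7% above 1 and a median count of 22 in Sample4.

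The most counted features overlapped in part. Of the 16 features that reached the 10 most counted of any column, 6 did so in every column. The mouse transcript ENSMUST00000103410 was counted 26, 36, 33 and 116 times in Sample1 to Sample4, and ENSMUST00000103328 was counted 26, 35, 30 and 105 times. Among the human features of this group, ENST00000600213, which was not matched in GENCODE 44, had 16, 42, 23 and 104 counts. ENST00000536684, also not matched, had 18, 28, 25 and 98 counts. The single matched one was ENST00000445125, annotated as a processed pseudogene of 1 exon (ENSG00000225840), with 16, 39, 25 and 109 counts. Pseudogene copies can share reads with their parent genes, so the assignment of its counts is uncertain. The 10 most counted features together held 1.54%, 1.59%, 1.27% and 1.02% of the counts in Sample1 to Sample4.

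Named genes among the 20 features with the largest sums were genes that most cells express strongly. GAPDH, a glycolytic enzyme, was represented by ENST00000229239 (chromosome 12, 6534517 to 6538371, plus strand), which was counted 7, 11, 19 and 39 times, and by ENST00000396861, with nearly the same span, which was counted 6, 11, 18 and 35 times. RPS3A, a protein of the small ribosomal subunit, was represented by ENST00000274065 (chromosome 4, 151099628 to 151104642, plus strand), with 10, 9, 10 and 43 counts. PTMA, prothymosin alpha, a small acidic nuclear protein, was also represented by 2 transcripts. ENST00000409115 (chromosome 2, 231708525 to 231713551, plus strand) was counted 7, 11, 13 and 45 times, and ENST00000341369, which covers nearly the same positions, 7, 11, 12 and 43 times. The values of the PTMA pair were equal in Sample1 and Sample2 and differed by 1 in Sample3 and by 2 in Sample4.

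Transcripts of the same gene often had equal counts, many of them at 1. Of the human genes counted in Sample1, 56.7% had 2 or more counted transcripts, and the share was 60.8% in Sample2, 63.2% in Sample3 and 70.8% in Sample4. In these genes, the top 2 transcripts had equal counts in 91.9%, 88.5%, 87.6% and 72.0% of cases. Of these ties, 83.6%, 80.6%, 77.8% and 53.1% were at 1 count each. Among genes whose top transcript was above 1, the top 2 were equal in 65.1% of 324 genes in Sample1, 59.9% of 553 in Sample2, 61.0% of 600 in Sample3 and 54.7% of 3158 in Sample4. Where the top transcript had 5 or more counts (20, 48, 59 and 808 genes), the second reached at least 80% of it in 90.0%, 62.5%, 67.8% and 67.0%. The table does not show whether a read was assigned to several isoforms, and this was not tested. With each human gene taken by its most counted transcript, the share above 1 was 19.1% in Sample1, 23.7% in Sample2, 26.3% in Sample3 and 54.1% in Sample4. The order of the columns was as for transcripts. With counts summed over isoforms, 62.7% of genes were above 1 in Sample1 and 81.2% in Sample4. Of these, 1075 of 1546 genes in Sample1 and 1952 of 5859 in Sample4 had no single transcript above 1 and passed only through adding isoforms at a count of 1 each.

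Some features stood higher in a particular column relative to its total, and these were chosen for that difference, so they are given as a description. For Sample1 they included RPS3A ENST00000274065, with 8.23 counts per 10000 in Sample1 and 4.90 to 5.40 in the others. For Sample2, TUBA1B, an alpha tubulin, had 3, 10, 5 and 21 counts for ENST00000547765, annotated as subject to nonsense-mediated decay. For Sample3 the 3 features were mouse transcripts, of which ENSMUST00000095610 had 1, 2, 13 and 9 counts, or 7.02 per 10000 in Sample3 and 0.823 to 1.12 in the others. For Sample4, EIF4G2, a translation initiation factor, had 0, 1, 1 and 16 counts for the retained-intron transcript ENST00000532383, and NACA, the alpha subunit of the nascent polypeptide-associated complex, 0, 1, 0 and 13 for ENST00000550952. The transcripts with the highest counts found in Sample4 alone were LDHA ENST00000227157 (lactate dehydrogenase A) with 12, TMBIM6 ENST00000267115 with 11 and EIF3C ENST00000566866 (a subunit of initiation factor 3) with 10. Other transcripts of LDHA were counted in every column, and the gene's sum was 5, 2, 8 and 57.

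Other transcripts are given because the study names them, in its single-cell comparisons, and not for their values. An IGLL5 transcript that the study also names there was not among the features counted. The mouse transcript ENSMUST00000034966 had 2, 7, 6 and 27 counts. CHD3, a chromatin remodeller, had 0, 0, 0 and 2 counts for ENST00000330494.

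Transcripts of abundant gene groups were above 1 more often than the backgrounds of 17.5%, 21.3%, 24.1% and 45.6% in Sample1 to Sample4. Of the features of cytosolic ribosomal protein genes, 53.5% were above 1 in Sample1 (167 of 312), 63.2% in Sample2, 69.0% in Sample3 and 81.5% in Sample4 (448 of 550). The list was made by symbol and includes 4 genes that are not ribosomal proteins proper, namely RPS19BP1 and the readthrough genes RPL17-C18orf32, RPS10-NUDT3 and RPL36A-HNRNPH2. Without them, a setting chosen after seeing the data, the shares were 53.7%, 63.5%, 69.7% and 81.9%. The features came from 88 of the 91 listed genes and held 9.18%, 8.49%, 9.29% and 7.05% of the human counts. RPS3A had the largest sum over the columns, with 35, 38, 39 and 169 counts over its transcripts. For 28 housekeeping genes (glycolysis, cytoskeleton, chaperones, ubiquitin), all of which were counted in every column, the shares above 1 were 60.0%, 65.9%, 76.5% and 85.4%. GAPDH summed to 28, 46, 74 and 164 counts, ACTB to 13, 31, 25 and 157 and ACTG1 to 30, 52, 50 and 110. The elongation factor EEF1A1, which brings aminoacyl-tRNA to the ribosome, had 26, 34, 29 and 110 counts, the most among 6 elongation genes.

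Mitochondrially encoded genes have 1 annotated transcript each, so no annotated isoforms share their counts. Sharing of reads between different genes was not tested. Of the 37 mitochondrially encoded genes, 13 were counted, which are the 13 protein-coding ones. Of those counted, 7 of 12 were above 1 in Sample1, 10 of 12 in Sample2, 11 of 12 in Sample3 and 11 of 13 in Sample4. MT-CYB (cytochrome b) was counted 3, 6, 5 and 33 times, MT-CO2 (cytochrome oxidase subunit II) 3, 9, 4 and 23 times and MT-CO1 5, 3, 7 and 15 times. MT-ND3 was counted in Sample4 alone, with 1 count.

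Shares above 1 were also taken for other lists, some of which rest on few counts. Of 32 genes of the secretory pathway in the endoplasmic reticulum, 31 were counted, and 20.9%, 23.6%, 40.6% and 77.4% of their features were above 1 in Sample1 to Sample4. In Sample1 and Sample2 these shares were close to the background, and in Sample3 and Sample4 they were above it. The list rests on 43 to 106 features per column. HSP90B1, a chaperone of this compartment, had 2, 3, 5 and 26 counts, and SRP14, a protein of the signal recognition particle, 3, 7, 9 and 24. SSR2, a subunit of the translocon-associated complex, had 3, 0, 17 and 22 counts, with Sample3 near Sample4 and above the other columns. Of 11 genes tied to translocations in myeloma, 4 were counted. The others, CCND1 among them, were at 0 in all columns. In the RM82 libraries 6 to 8 of the 11 were counted, led by CCND1, so the list is not particular to myeloma cells. CCND3, cyclin D3, had 1, 2, 4 and 42 counts, NSD2 had 4, 5, 0 and 9, MYC 0, 5, 4 and 14 and CCND2 a single count in Sample4. Of the features of this list, 0 of 5, 1 of 11, 0 of 8 and 14 of 19 were above 1. Of 70 replication-dependent histone genes, whose messages lack a poly(A) tail, 4 were counted, led by H1-4 with 2, 4, 4 and 4 counts. Of the histone features counted, 1 of 2, 3 of 4, 1 of 4 and 4 of 4 were above 1, too few to set against the background.

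Overcounting also differed with the length of the transcript. In the shortest class, under 500 bases, 13.4% of 134 human transcripts were above 1 in Sample1 (95% Wilson interval 8.67 to 20.2%), 29.0% of 162 in Sample2, 27.3% of 187 in Sample3 and 37.9% of 581 in Sample4, where this class was the lowest. For human transcripts of 500 to under 1000 bases, 26.9% were above 1 in Sample1 (95% Wilson interval 24.2 to 29.9%), and for those of 2000 to under 4000 bases 12.2% (10.7 to 13.9%). The same classes had 27.8% and 17.1% in Sample2 and 31.4% and 20.8% in Sample3. In Sample4 the class of 500 to under 1000 bases had 44.6% (42.9 to 46.2%) and that of 2000 to under 4000 bases 46.5% (45.4 to 47.7%), and the highest class was 1000 to under 2000 bases with 50.1%. Of these 2 classes the shorter was thus the higher in Sample1 to Sample3, and in Sample4 their intervals overlapped. The median length was 1585 bases for transcripts above 1 and 2242 for those with a count of 1 in Sample1, and 2096 and 2239 in Sample4. Ribosomal protein messages are short and abundant, so length and abundance were not separated.

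**Figure D5:**
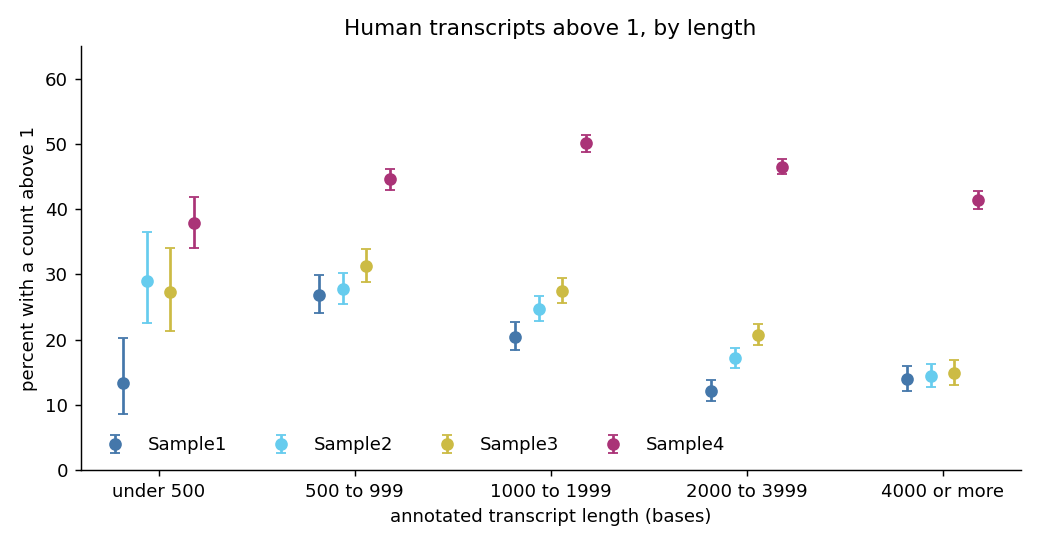
Percent of counted human transcripts above 1 (y axis; bars are 95% Wilson intervals) by annotated transcript length in bases (x axis) in the 4 columns. Sample1 has 13.4% under 500 bases, 26.9% at 500 to under 1000 bases and 13.9% at 4000 or more. Sample4 lies between 37.9% and 50.1% in all classes.

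By annotated class, coding transcripts had a higher share above 1 than retained-intron or nonsense-mediated decay transcripts in all 4 columns. In Sample1 the share above 1 was 19.0% of 4081 protein-coding transcripts, 10.4% of 413 with a retained intron and 13.4% of 418 marked for nonsense-mediated decay. In Sample4 the shares were 49.4% of 15268, 37.8% of 2400 and 40.7% of 2123. In Sample2 they were 22.1%, 16.8% and 19.5%, and in Sample3 24.8%, 20.1% and 21.6%. In Sample2 and Sample3 the Wilson intervals of coding and nonsense-mediated decay transcripts overlapped. Coding transcripts made up 72.1%, 72.1%, 70.8% and 65.6% of human features in Sample1 to Sample4, and retained-intron transcripts 7.29%, 6.91%, 8.26% and 10.3%. Long noncoding RNAs were few, with 32, 42, 22 and 127 transcripts counted, of which 1, 3, 1 and 23 were above 1. Of the human features, 95.3%, 94.6%, 94.6% and 92.8% were also counted in at least 1 of the RM82 libraries.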

How the data were processed

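Bulk cDNA with a CMI was amplified for 15, 20, 25 or 30 cycles, and 1 table of 4 columns was used. The values deposited by the authors are whole-number counts per Ensembl transcript, without normalization. The submitters' processing notes name minimap2 2.22, UMI-tools, featureCounts 2.0.1 and DESeq2 and the builds hg38 and mm10, without saying which made this table. Column totals lay between 12157 and 87818, and depth in reads is unknown. A feature was counted from a count of 1 and overcounted above 1. Shares have 95% Wilson intervals and their differences Newcombe intervals. Expected values at the smallest total used the exact hypergeometric formula, which was tested on simulated data. Human identifiers were matched, without version, to GENCODE release 44 (Python 3.11.15, pandas 2.3.3, scipy 1.17.1). The RM82 tables, counts per transcript deposited by the authors, served as reference for marker genes. No p-value was computed. The intervals compare columns with features as the units and cover counting error only, and Dixon's critical value was used to list columns that stand apart. Cycle number was not tested. Named features were the 10 most counted per column, the 20 largest sums, up to 3 per column furthest above the other columns relative to the total (minimum count 10), up to 4 members per gene list, and transcripts that the study names. Some members are named beyond that rule, for their values, and were chosen after these were seen. Members, lists and alternatives were chosen with earlier results of these data known. The CMI reports of the other samples were not used here.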

Additional observations from a re-analysis of the deposited data

Results flagged for a closer look

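In 9 of 51 measures, the column farthest from the others was separated from its neighbour by a gap that, divided by the whole range of the 4 columns, exceeded Dixon's 95% critical value. Chance flags about 1 in 20 groups, the columns are libraries of different cycle numbers rather than replicates, and several of the measures rest on the same counts.

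Sample4 was set apart by its total count of 87818 and by its 38342 features, of which 893 had a count of 10 or more. Its human share of counts was 60.2%, and the other columns lay between 59.3% and 59.4%. The 95% Wilson interval of Sample4 (59.8 to 60.5%) overlapped those of the other columns. The CHD3 transcript ENST00000330494 had 0.228 counts per 10000 in Sample4, which are 2 counts, and 0 in the others. A feature at 0 in the other columns is always set apart in this way, as 21363 features counted in Sample4 only would be.

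Sample2 was set apart by ENST00000600213, with 23.6 counts per 10000 against 11.8 to 13.2 in the others, and by the processed pseudogene transcript ENST00000445125, with 21.9 against 12.4 to 13.5. Immunoglobulin genes held 1.89 counts per 10000 human counts in Sample2, from 2 counts. In Sample1 the RPS3A transcript ENST00000274065 held 8.23 counts per 10000, against 4.90 to 5.40 in the others.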

How the results depend on the processing

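Over the alternatives, 39 of 89 values stayed within the counting interval of the deposited value or within 1.5 times its count, and 50 did not. Using human or mouse features alone moved no value of the shares above 1 beyond that range. Leaving out human immunoglobulin features could move little, since 0, 2, 0 and 1 of them were counted in Sample1 to Sample4. At the smallest total, Sample1 keeps its deposited values by definition. Values fixed or nearly fixed in this way are among the 39. With a minimum count of 2, the features per column were 1650, 2748, 3119 and 17480 (Sample1 to Sample4), and 660 were in every column. Summed to human genes, 2467, 3175, 2975 and 7218 genes were counted, and the 10 most counted held 3.72%, 3.71%, 3.91% and 2.76% of the counts. At the smallest total, 9621 features were expected in Sample4. The share above 2 was 5.42%, 7.44%, 8.48% and 24.2%, and the share above 4 was 1.10%, 1.72%, 2.17% and 9.54%. Among features of all columns the share above 1 was 37.7%, 51.3%, 53.6% and 93.7%. By the most counted transcript of a human gene, an alternative chosen after seeing the data, it was 19.1%, 23.7%, 26.3% and 54.1%. Sample1 was lowest and Sample4 highest in each of these shares above 1, above 2 or above 4. At the smallest total the expected share was 17.4% in Sample2, 19.1% in Sample3 and 17.2% in Sample4, beside 17.5% in Sample1. That order was another, and the cause was not tested.

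Among features above 1, human features made up 59.2% in Sample2 and 59.0% in Sample3, and human counts 57.8%, 57.9% and 57.9% in Sample1 to Sample3. With a count of at least 2 in both columns, Sample1 shared 51.5% of its features with Sample2, 52.1% with Sample3 and 88.2% with Sample4. Sample2 shared 30.9% with Sample1 and 86.4% with Sample4. Sample3 shared 27.5% with Sample1, 39.7% with Sample2 and 86.3% with Sample4. Sample4 shared 8.32%, 13.6% and 15.4% with Sample1, Sample2 and Sample3. Leaving out each column in turn, the number of features counted in all remaining columns lay between 3138 (without Sample4) and 5418 (without Sample1).

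No paired analysis was possible because each number of cycles has 1 library. Depth in reads is unknown, so no limit was set for features at 0. Without the pairing of columns and cycles, and with Sample4 apart in its total, the data give no estimate of a change per cycle.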
